A study of Rattus norvegicus with 12 samples.

Results

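Genes that mark T cells were measured in total RNA from the retinas of 12 rats. The set was given by gene name, with earlier results of these data known: Cd4, Cd8a, Cd8b, Cd3d, Cd3e, Cd3g, Lck, Cd2, Cd5 and Ptprc, each matched exactly to the gene name in the deposited table. Of these 10 names, 9 had a row among the 30560 genes of the table. Cd4 had none under that name and is not analysed here. In the NMDA group 6 rats received 2 µL of 20 mM NMDA into the vitreous, and in the PBS group 6 rats received 2 µL of PBS by the same route. Libraries are called NMDA 1 to NMDA 6 and PBS 1 to PBS 6 after the numbers in their labels, with 1 library per rat. NMDA activates the glutamate receptors named after it, and its injection overstimulates and injures inner retinal neurons, which serves as a model of glaucoma. Strain, sex, age and the time from injection to collection are not given in the labels.

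A T cell recognises antigen through a receptor that is displayed and relayed by the CD3 chains. CD4 and CD8 are co-receptors that bind MHC molecules and carry the kinase LCK to that receptor, and the phosphatase CD45, encoded by Ptprc, keeps LCK ready to act. CD2 is an adhesion and costimulatory receptor, and CD5 dampens receptor signalling. The CD3 chains are the members that define T cells most narrowly. In rats CD4 and the CD8 alpha chain are also found on macrophages, and the alpha chain on natural killer cells too, whereas CD45 is carried by all white blood cells, microglia included. The healthy retina holds microglia and hardly any T cells behind its blood barrier.

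Total counts were 26298655 to 34022023 in NMDA libraries and 16415611 to 31057161 in PBS libraries. Rod photoreceptor genes marked all libraries as retina: the 10 listed genes summed to 40400 to 57100 CPM in NMDA libraries and 56100 to 59700 CPM in PBS libraries, where CPM are counts scaled to a common library total with TMM factors. The T cell markers were rare transcripts, and all 9 summed to 13.7 to 38.0 CPM in NMDA libraries and 2.66 to 8.48 CPM in PBS libraries. Among the PBS libraries PBS 5 stood apart, with the highest sums of the member genes, of the macrophage, neutrophil and natural killer cell lists and of the list of genes of all leukocytes. Results that rest on it are given with and without it. In these whole retinas, more cells of a type and more RNA per cell cannot be told apart.

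The stretches before the start sites of Cd8a, Cd3e and Ptprc are shown because these are the members that passed the test described further on, and their levels are compared throughout. They are the 250 bases before the RefSeq start on the gene's strand, 5′ to 3′, from the RefSeq table of GRCr8. Capitals mark GGAAGT or its reverse complement ACTTCC, a core read by ETS factors, a family active in blood cells.
Cd8a (GRCr8, chr4:104923866-104924115, plus strand): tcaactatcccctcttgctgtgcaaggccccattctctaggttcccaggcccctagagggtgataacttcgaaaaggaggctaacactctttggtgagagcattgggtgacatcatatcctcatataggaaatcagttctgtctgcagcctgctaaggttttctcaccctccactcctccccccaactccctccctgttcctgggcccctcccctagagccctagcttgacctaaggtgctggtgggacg
Cd3e (GRCr8, chr8:54211771-54212020, minus strand): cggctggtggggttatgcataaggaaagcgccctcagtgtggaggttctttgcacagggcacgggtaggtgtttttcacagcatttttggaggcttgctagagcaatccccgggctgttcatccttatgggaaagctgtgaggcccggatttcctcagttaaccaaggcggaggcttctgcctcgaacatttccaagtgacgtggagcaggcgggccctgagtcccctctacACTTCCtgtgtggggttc
Ptprc (GRCr8, chr13:52259747-52259996, minus strand): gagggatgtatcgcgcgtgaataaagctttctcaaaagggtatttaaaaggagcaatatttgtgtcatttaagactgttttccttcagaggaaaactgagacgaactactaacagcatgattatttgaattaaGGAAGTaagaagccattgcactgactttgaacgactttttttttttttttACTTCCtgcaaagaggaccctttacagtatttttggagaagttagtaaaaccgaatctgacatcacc
In the Ptprc stretch the motif stood 117 and 67 bases before the start, in the Cd3e stretch 18 bases before it, and the Cd8a stretch held none. Of 8 members with a RefSeq window 5 had the motif, in a table where 19.2% of 33469 windows of this length held it. The match describes the letters alone. The deposited table gives its own positions, whose build the labels do not name. In that table Cd3g, Cd3d and Cd3e lie side by side on chromosome 8 (45281204 to 45287147, 45288749 to 45301809 and 45303852 to 45315022). Cd8b and Cd8a are neighbours on chromosome 4 (103312578 to 103328553 and 103365804 to 103370040). No span of a member gene overlapped that of another gene of the table.

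**Figure D1:**
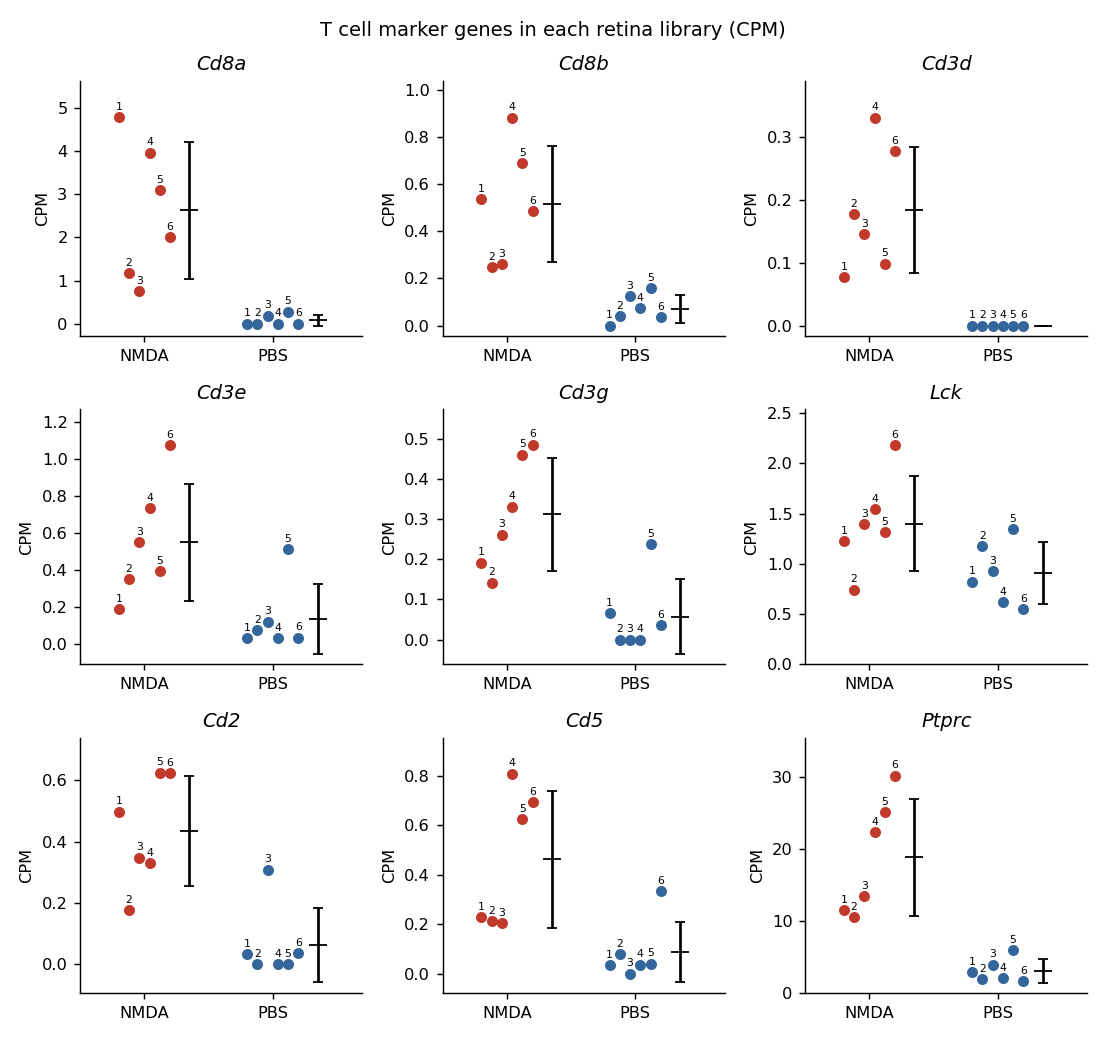
Level of each T cell marker gene in CPM (vertical axis, linear) in the 6 NMDA and the 6 PBS libraries, with the library number beside each point and the mean ± SD at the right of each group. Cd8a, Cd8b, Cd3d and Ptprc have all NMDA points above all PBS points, and PBS 5 is the highest PBS point of Cd8a, Cd8b, Cd3e, Cd3g, Lck and Ptprc.

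The comparison of NMDA with PBS asked whether transcripts of the T cell markers differ after the injury. Cd8a and Ptprc rose strongly, Cd3e rose from few counts, and the remaining Cd3 genes, Cd8b, Cd2 and Cd5 were rare in both groups but had more counts in NMDA libraries. Lck did not pass the test. Of the 9 members, 4 passed the filter on low counts and 3 of these rose (edgeR quasi-likelihood test, Benjamini-Hochberg adjusted p under 0.05), in a comparison that called 37.9% of 16260 tested genes in either direction and 20.4% higher. Of the 6167 genes called 3315 were higher in NMDA libraries, and 4233 of 6556 with scaling by library size alone, where the same count of 3 members was called. Cd8a passed that filter through its NMDA libraries alone, and Cd3e through 5 NMDA libraries and PBS 5, so these counts say little by themselves. For 4 of the 9 members every NMDA library exceeded every PBS library, as in 6.76% of the 23377 genes with at least 1 count and 9.43% of the tested genes.

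Cd8a (ENSRNOG00000007178), the gene of the CD8 alpha chain, had the largest fitted change of the 4 tested members. Its counts were 125, 33, 26, 108, 94 and 58 in NMDA 1 to NMDA 6, and 0, 0, 3, 0, 7 and 0 in PBS 1 to PBS 6. Every NMDA library lay above every PBS library, and the highest NMDA value was in NMDA 1. The 4 PBS libraries at 0 allow up to 0.0989 to 0.118 CPM, at 3 counts per library and for counting error only. The mean was 2.63 ± 1.60 CPM in NMDA libraries and 0.0772 ± 0.123 CPM in PBS libraries (SD, n = 6 each). The log2 fold change was 5.19 ± 0.80 (SE), with an adjusted p of 0.000421 by edgeR. The fitted fold rests on 10 PBS counts in all, of which PBS 5 held 7. Without PBS 5 the log2 fold change was 6.50 (edgeR adjusted p = 0.000292).

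Cd8b (ENSRNOG00000007129), the gene of the beta chain that pairs with alpha on most cytotoxic T cells, was far rarer. It had 7 to 24 counts in NMDA libraries (median 14) and 0 to 4 counts in PBS libraries (median 1.5), again with no overlap. These were too few for the filter. In the fit without a filter its log2 fold change was 2.85 ± 0.54 (SE; edgeR adjusted p = 0.0013). By length-scaled level, the mean FPKM of Cd8b was 0.228 ± 0.109 in NMDA libraries and 0.0307 ± 0.0255 in PBS libraries (SD, n = 6 each). The FPKM of Cd8a was 4.80 to 14.8 times that of Cd8b in the NMDA libraries, highest in NMDA 1 and lowest in NMDA 3.

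The CD3 chain genes, which set the scale for T cells, were at the edge of detection. Cd3d (ENSRNOG00000015994) had 2, 5, 5, 9, 3 and 8 counts in NMDA 1 to NMDA 6 and none in any PBS library. Pooled over the groups this is 32 counts with NMDA, at least 9.58-fold higher than the 3 counts that a PBS count of 0 allows over the group. Cd3g (ENSRNOG00000015945) had 4 to 14 counts in NMDA libraries (median 9) and 0 to 6 counts in PBS libraries (median 0.5). The groups of Cd3g overlapped through PBS 5 alone, whose 6 counts exceeded those of NMDA 1 and NMDA 2.

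Cd3e (ENSRNOG00000016069), the member of the complex with enough reads for the test, had 5, 10, 19, 20, 12 and 31 counts in NMDA 1 to NMDA 6. PBS 1 to PBS 6 had 1, 2, 2, 1, 13 and 1 counts. All NMDA libraries exceeded PBS libraries other than PBS 5, which lay among them. The mean was 0.550 ± 0.316 CPM in NMDA libraries and 0.137 ± 0.189 CPM in PBS libraries (SD, n = 6 each; log2 fold change 2.01 ± 0.63 SE, edgeR adjusted p = 0.0228). Without PBS 5 the log2 fold change was 3.20 (edgeR adjusted p = 0.000952). The call ended without NMDA 6 (edgeR adjusted p = 0.0560) and without PBS 1, PBS 2, PBS 4 or PBS 6 (edgeR adjusted p from 0.0511 to 0.0515). The log2 fold change then lay between 1.71 and 1.90.

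**Figure D2:**
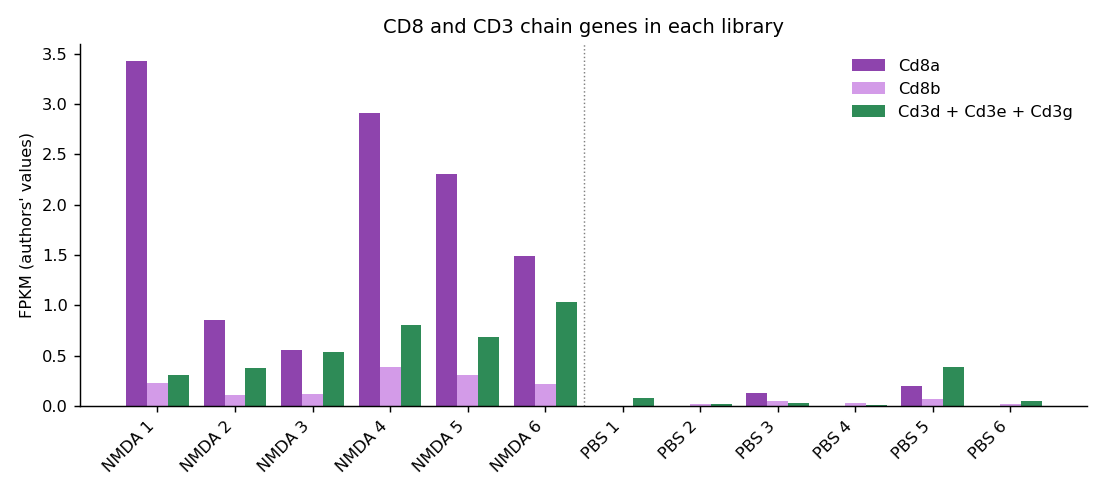
FPKM as deposited by the authors (vertical axis, linear from 0) of Cd8a, of Cd8b and of the 3 CD3 chain genes summed, in each library, NMDA libraries left of the dotted line. NMDA 1 has the tallest Cd8a bar (3.42) and the lowest CD3 sum of the NMDA libraries (0.305), and PBS 5 has the tallest CD3 bar of the PBS libraries (0.385).

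Cd8a and the CD3 genes parted most in NMDA 1, and no correlation between them was computed. The summed FPKM of Cd3d, Cd3e and Cd3g was 0.305, 0.381, 0.536, 0.801, 0.682 and 1.03 in NMDA 1 to NMDA 6. In PBS libraries it was 0.00984 to 0.385, with PBS 5 at the top. NMDA 1 thus had the most Cd8a and the least CD3 of its group, at 3.42 FPKM of Cd8a, and NMDA 6 had the most CD3 beside 1.49 FPKM of Cd8a. NMDA 2 and NMDA 3 were lower in both than NMDA 4 and NMDA 5. Their Cd8a values were 0.858 and 0.551 FPKM, against 2.91 and 2.30 FPKM. PBS 5 was the highest PBS library for both. The ratio of Cd8a to summed CD3 FPKM was 11.2 in NMDA 1 and 1.03 to 3.63 in the other NMDA libraries. In PBS 5 it was 0.514 and in PBS 3, on 3 Cd8a and 2 CD3 counts, 3.93, while the 4 PBS libraries without a Cd8a count were at 0.

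Cd8a and Cd3e were set against each other in each library on a log2 scale with a prior count. The difference between their log2 CPM values (prior count 2) was 4.20, 1.54, 0.41, 2.32, 2.76 and 0.86 in NMDA 1 to NMDA 6. In PBS libraries it was -1.05 to 0.39, the highest being PBS 3. Each NMDA value lay above each PBS value, narrowly so for NMDA 3 (0.406) and PBS 3 (0.394). The mean difference was 2.01 ± 1.38 in NMDA libraries and -0.52 ± 0.48 in PBS libraries (SD, n = 6 each), 2.53 apart (two-sided exact permutation p = 0.00216, the smallest that all assignments of 12 libraries to these group sizes can give). With a prior count of 0.5 the distance was 3.37 (two-sided exact permutation p = 0.00433), and without NMDA 1 it was 2.09 with the prior count of 2. Most PBS libraries were at or near 0 for both genes, where the prior count sets the value. The distance and its p therefore depend on the prior count and on the levels in NMDA libraries, where Cd8a had more counts than Cd3e. By themselves they do not tell whether Cd8a and Cd3e changed by different factors. Of the CD3 genes it covers Cd3e alone. In the fit without a filter Cd3d had a log2 fold change of 5.36, beside 5.18 for Cd8a. Cd3d had no PBS count, so the size of its change is not measured and cannot be ranked against that of Cd8a.

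Lck (ENSRNOG00000009705), the kinase that rides on CD4 and CD8, had reads in every library. Its counts were 21 to 63 in NMDA libraries (median 41) and 15 to 34 in PBS libraries (median 21), and the groups overlapped. The mean was 1.40 ± 0.47 CPM in NMDA libraries and 0.908 ± 0.311 CPM in PBS libraries (SD, n = 6 each). The log2 fold change of 0.63 ± 0.27 (SE) did not pass (edgeR adjusted p = 0.0891). It passed without NMDA 2 (0.76, edgeR adjusted p = 0.0360) or without PBS 5 (0.78, edgeR adjusted p = 0.0461). In PBS libraries Lck averaged 0.137 FPKM, where the CD3 genes averaged 0.0582 (Cd3g), 0.0373 (Cd3e) and 0 (Cd3d).

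Of the other Src family kinases some moved and some did not pass. Fgr and Lyn, kinases of myeloid cells, had log2 fold changes of 3.07 and 1.69 and rose (edgeR adjusted p = 0.000338 and 0.000374). Src, Fyn and Yes1, found in most tissues, did not pass, with Yes1 at 0.11 (edgeR adjusted p = 0.334). Blk, a B cell kinase, had 20 counts in all NMDA libraries and 3 in all PBS libraries and was not tested.

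Cd2 and Cd5, surface receptors of T cells, were also removed by the filter. Cd2 (ENSRNOG00000015821) had 5 to 19 counts in NMDA libraries (median 12.5) and 0 to 5 in PBS libraries (median 0.5), with the top PBS value in PBS 3. Cd5 (ENSRNOG00000020872) had 6 to 22 counts in NMDA libraries (median 13) and 0 to 9 in PBS libraries (median 1), with the top PBS value in PBS 6. For each gene a single PBS library reached into the NMDA range, a different one for each and neither of them PBS 5. In the fit without a filter their log2 fold changes were 3.04 ± 0.71 and 2.28 ± 0.64 (SE; edgeR adjusted p = 0.00571 and 0.0165). Cd3g was at 2.32 ± 0.67 in that fit (edgeR adjusted p = 0.0197). Cd3d was at 5.36 ± 0.88 (SE; edgeR adjusted p = 0.0018). With no PBS count, the size of that value is not measured, and only the lower bound given above holds. Leaving out PBS 3 moved the log2 fold change of Cd2 to 4.52, leaving out PBS 6 moved that of Cd5 to 3.39, and leaving out PBS 5 moved that of Cd3g to 3.51. All 5 members that the filter removed passed in the unfiltered fit, which called 3.08% of the 7117 removed genes higher. For Cd8b and Cd3d the groups did not overlap, as was so for 0.66% of the removed genes.

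Ptprc (ENSRNOG00000000655, chromosome 13, 49596193 to 49708692), the CD45 gene, was the best measured member. It had 300, 297, 462, 607, 761 and 870 counts in NMDA 1 to NMDA 6, and 86, 49, 63, 56, 149 and 44 counts in PBS 1 to PBS 6. Every NMDA library lay above every PBS library, among which PBS 5 was highest. The mean was 18.8 ± 8.14 CPM in NMDA libraries and 3.04 ± 1.63 CPM in PBS libraries (SD, n = 6 each). The log2 fold change was 2.64 ± 0.38 (SE), with an adjusted p of 0.000302 by edgeR, and 2.96 without PBS 5.

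By FPKM, which allows levels of different genes to be set side by side, the order of means in NMDA libraries was Cd8a (1.92 ± 1.15), Ptprc (1.30 ± 0.58), Cd2 (0.389), Cd3g (0.331), Cd8b (0.228), Lck (0.219), Cd5 (0.162), Cd3e (0.154) and Cd3d (0.137) (SD for the first pair, n = 6). Neighbours in this order overlapped in range, except Ptprc and Cd2: the lowest Ptprc value was 0.725 FPKM and the highest Cd2 value 0.569. In PBS libraries Ptprc (0.202) and Lck (0.137) led, and the other members averaged at most 0.0582 FPKM, the value of Cd3g. Cd8a, first by mean in NMDA libraries, stood below Ptprc, Lck and Cd3g in PBS libraries at 0.0550 FPKM, within the spread of Cd3g and Cd2.

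**Figure D3:**
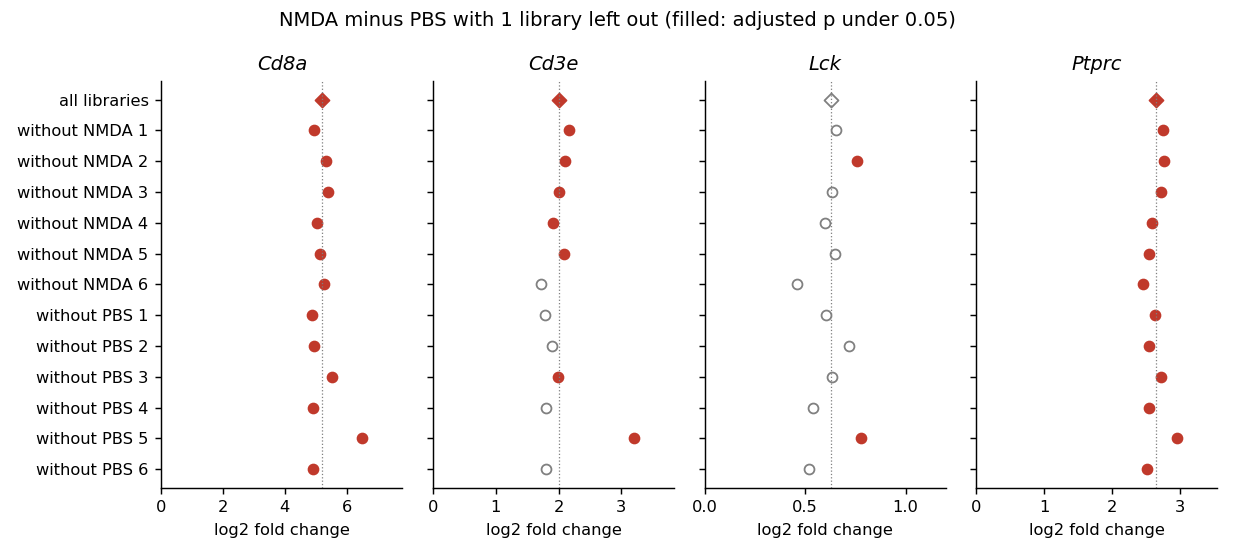
Log2 fold change (NMDA minus PBS, edgeR) of the 4 tested members, with all libraries (diamond) and with each library left out in turn (circles), filled where the adjusted p is under 0.05. Cd8a and Ptprc stay filled throughout, Cd3e loses its call in 5 of the 12 and Lck gains one in 2 of them, and leaving out PBS 5 gives the largest value for each gene.

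The genes nearest in profile to 3 members were found by the root mean square difference over 12 libraries of log2 CPM minus the PBS mean. Candidates were named genes that passed the filter, with a mean log2 CPM not far below the member's. Cd8b, Cd3d, Cd3g, Cd2, Cd5 and other T cell genes that the filter removed could therefore not be found. The cells that carried the transcripts of the members were not tested. For Cd8a the nearest of 14697 genes was Siglec1, a macrophage lectin gene, at 0.70, with 10.7, 3.05, 3.60, 14.4, 9.08 and 1.52 CPM in NMDA 1 to NMDA 6. It was followed by Ly49si2, of the Ly49 family of natural killer receptors, Msr1, a scavenger receptor gene of macrophages, Pla2g2d, a secreted phospholipase gene, and Lilrb4, an inhibitory receptor gene, at 0.83 to 0.90. For Cd3e the nearest were Emp3, Gbp5, Ifitm3, Fcgr1a and Arntl2, at 0.39 to 0.43. Gbp5 and Ifitm3 are interferon-induced genes, and Fcgr1a encodes an antibody receptor of macrophages. For Ptprc they were Cybb, the NADPH oxidase subunit gene of phagocytes, Rac2, Itgb2, Lgals3 and Myof, at 0.20 to 0.34. Siglec1 shared with Cd8a the low values in NMDA 2, NMDA 3 and NMDA 6, whereas Itgb2, like Ptprc, was highest in NMDA 6 (29.6 CPM).

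Other genes of T cell receptor signalling, from a list of 20, were mostly too general or too rare to follow the members. Of 11 tested genes 3 rose and 1 fell, with a median log2 fold change of 0.15 beside 0.01 for all tested genes. Lcp2, an adaptor gene used in several white blood cells, rose by 1.40 on the log2 scale, and Cd6, a relative of Cd5, rose by 1.21 (edgeR adjusted p = 0.002 and 0.00235). The 9 untested genes of this list had 268 counts in NMDA libraries and 79 in PBS libraries, each with more in the NMDA group. Among them Cd247, the CD3 zeta chain gene, had 42 counts in NMDA libraries and 12 in PBS libraries. Skap1, an adaptor gene, had 19 counts in NMDA libraries and none in PBS libraries. Trat1, a receptor-associated adaptor gene, had 12 counts in NMDA libraries, all in NMDA 5 and NMDA 6, and none in PBS libraries.

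Genes of T cell states and effector functions moved both ways. Of 12 tested genes 3 rose and 3 fell, with a median log2 fold change of 0.06. Ccr7, the receptor that guides lymphocytes and dendritic cells to lymph nodes, rose to 1.17 ± 0.32 CPM in NMDA libraries, against 0.0440 ± 0.0800 CPM in PBS libraries (SD, n = 6 each; log2 fold change 4.54, and 5.86 without PBS 5; edgeR adjusted p = 0.000123). Bcl11b and Eomes, transcription factor genes used by T cells and by neurons, fell by 1.13 and 0.91 (edgeR adjusted p = 0.000541 and 0.00352). The 14 untested genes of this list had 652 counts in NMDA libraries and 73 in PBS libraries, and 11 of them had more in the NMDA group. Ccl5, a chemokine gene of T cells and natural killer cells, had 189 counts in NMDA libraries and 9 in PBS libraries. Cxcr3, a chemokine receptor gene of activated T cells, had 116 counts in NMDA libraries and 8 in PBS libraries. Icos, a costimulatory receptor gene, had 73 counts in NMDA libraries, none of them in NMDA 2, and 7 in PBS libraries. Nkg7, a granule protein gene, had 63 counts in NMDA libraries and 6 in PBS libraries, and Gzmk, a granzyme gene, had 21 in NMDA libraries and 4 in PBS libraries, all 4 in PBS 3. Ifng and Cd40lg had no count in any library and were not detected at this depth. Gzma, a further granzyme gene, had 4 counts in NMDA libraries and 2 in PBS libraries. Prf1, the perforin gene, had 52 counts in NMDA libraries, 39 of them in NMDA 4, and 5 in PBS libraries.

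**Figure D4:**
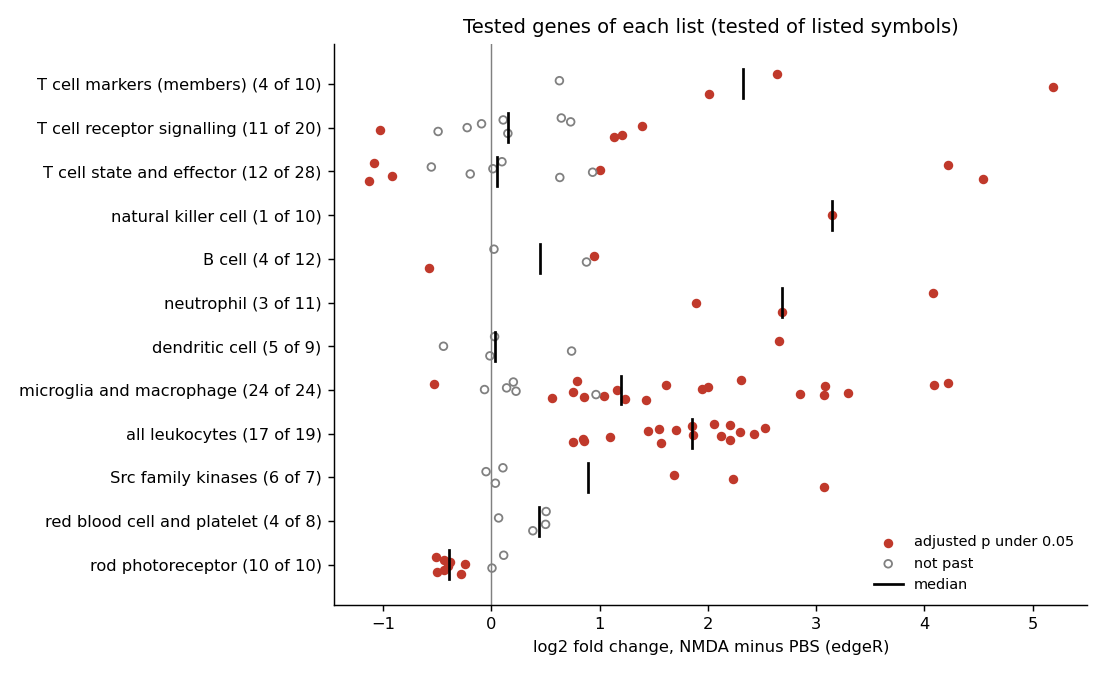
Log2 fold changes (horizontal axis, NMDA minus PBS, edgeR) of the tested genes of each list, filled where the adjusted p is under 0.05, with a bar at the list's median. The T cell receptor signalling and T cell state lists straddle 0, while the 17 tested genes of all leukocytes lie to the right of it and most rod genes to the left.

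Most markers of microglia and macrophages, and those of white blood cells in general, rose as the called members did. Of 24 microglia and macrophage genes 18 rose and 1 fell (median log2 fold change 1.20), and all 17 tested genes of all leukocytes rose (median 1.85). The macrophage list summed to 292 to 617 CPM in NMDA libraries and 174 to 300 CPM in PBS libraries, and none of its genes was at 0. Cx3cr1, Tyrobp, Cd14 and Cd68, genes of microglia and macrophages, had log2 fold changes of 1.16, 2.31, 3.07 and 2.85. Vav1, Ptpn6, Cd53 and Rac2, of white blood cells in general, were at 2.20, 1.55, 2.21 and 2.53, beside 2.64 for Ptprc. The part of macrophages in the values of Cd8a and Ptprc was not tested.

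Natural killer cell genes were rare too. Their list of 9 measured genes summed to 0.779 to 4.05 CPM in NMDA libraries and 0.0330 to 0.714 CPM in PBS libraries, with Klrb1 at 0 in all libraries. Klrk1, the gene of an activating receptor also carried by CD8 T cells, rose with a log2 fold change of 3.15 (4.19 without PBS 5; edgeR adjusted p = 0.00313). NMDA 4 had the highest natural killer sum, and the highest Cd8b and Cd3d counts were there as well. The part of natural killer cells in the value of Cd8a was not tested.

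B cell and neutrophil genes were measured for the same reason. Of 4 tested B cell genes 1 rose and 1 fell, the one that rose being Jchain (log2 fold change 0.95). The call of Jchain ended when any 1 of 7 libraries was left out, namely NMDA 4 to NMDA 6, PBS 2 to PBS 4 and PBS 6 (edgeR adjusted p up to 0.0858). The whole list had sums of 4.35 to 8.11 CPM in NMDA libraries and 3.68 to 5.23 CPM in PBS libraries. Ms4a1, the CD20 gene, had 6 counts in all NMDA libraries and none in PBS libraries. Neutrophil genes summed to 5.52 to 64.3 CPM in NMDA libraries and 2.29 to 6.70 CPM in PBS libraries, and Mmp9, Csf3r and S100a9, the 3 tested, rose. S100a9 was at 4.08 on the log2 scale, at 5.80 without PBS 5, and at 2.66 without NMDA 6, where its call ended (edgeR adjusted p = 0.0552). Csf3r was at 2.68, and at 1.84 without NMDA 6. The sum over the neutrophil list was highest in NMDA 6, which also had the most Cd3e, Cd3g, Lck and Ptprc counts among NMDA libraries, Cd3g level with NMDA 5. Of 5 tested dendritic cell genes Itgax rose (2.66, edgeR adjusted p = 0.00114), and Siglech, a gene of plasmacytoid dendritic cells, had 75 counts in NMDA libraries and none in PBS libraries.

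Blood carried in the vessels was followed by red blood cell and platelet genes, 4 of which were tested. Hba-a2, a haemoglobin gene, had 125 ± 38.0 CPM in NMDA libraries and 88.4 ± 13.6 CPM in PBS libraries (SD, n = 6 each; log2 fold change 0.50, edgeR adjusted p = 0.0534), and passed without NMDA 2, NMDA 5 or PBS 3 (lowest edgeR adjusted p = 0.0110). Alas2, Slc4a1 and Itga2b had log2 fold changes of 0.38, 0.51 and 0.07 (edgeR adjusted p = 0.234, 0.241 and 0.726). The list's sum was 150 CPM in NMDA 1 and 190 CPM in NMDA 3, which had the most and the least Cd8a of the group. In PBS 5, the PBS library with the most CD3 counts, that sum was 80.7 CPM, the lowest of its group, close to 81.8 CPM in PBS 4. The sum was mostly Hba-a2. The part of blood in the values of Cd8a and the CD3 genes was not tested.

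The MHC molecules that CD8 and CD4 bind were followed through 6 genes, of which 5 rose. The listed class I heavy chain genes, RT1-A1 and RT1-A2, had no row under those names. Class I, the partner of CD8, was thus followed through its light chain alone. B2m, the light chain of class I, had 305 ± 64.5 CPM in NMDA libraries and 95.1 ± 26.6 CPM in PBS libraries (SD, n = 6 each; log2 fold change 1.68). Cd74, the class II invariant chain gene, had a log2 fold change of 2.39, and the class II chain genes RT1-Ba and RT1-Db1 were at 2.60 and 2.47. Without PBS 5 these 3 values were 3.04, 3.41 and 3.16. Values of RT1 genes are uncertain, since reads of near-identical copies may be shared among them. The sum of these 6 genes was mostly B2m. It was lowest in NMDA 1 at 302 CPM, close to 306 CPM in NMDA 2, where Cd8a was at 4.79 and 1.17 CPM in turn.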

How the data were processed

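Gene counts of total RNA from 12 rat retinas (6 NMDA, 6 PBS) were analysed. Whole read counts per gene were deposited without scaling, per the file headers and values, and FPKM values stood beside them, per the file headers. Bowtie2, RSEM 1.3.1 and DESeq2 1.4.5 appear in the submitters' processing notes, which give no roles. Build, strandedness and the treatment of multiply matching reads are not given in the sources used here. Counts were filtered (filterByExpr, minimum 10, total 15), scaled by TMM (factors 0.976 to 1.03) and tested over all genes with edgeR 4.0.16 (robust quasi-likelihood, two-sided, Benjamini-Hochberg, threshold 0.05) in R 4.3.3, with the group as only term. SEs were derived from the fold change and its F statistic. Levels are TMM-scaled CPM, or FPKM between genes. Low-count members were read from a fit of all 23377 genes with a count. Members and lists were chosen with earlier results of these data known. The text names all members, up to 4 genes per list with the smallest adjusted p, and the 5 nearest profiles; other genes were chosen after their values were seen. Some genes of the lists are counted but not reported here by name. The planned test of Cd4 against Cd3e was not run. Alternatives changed scaling, filter, libraries, block and tool (DESeq2 1.42.0, limma 3.58.1 on counts and on log2(FPKM + 0.1)). No label names a batch, and no library pair agreed within sampling noise. Labels give 1 rat per library. PCR duplicates cannot be recognised here, so floors cover counting error only.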

Additional observations from a re-analysis of the deposited data

Results flagged for a closer look

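Among 22 groups of 6 values looked at, 7 had a library far from the others. The rule flags about 1 group in 20 for normally distributed values. That rate does not hold for counts near 0, as in the flagged PBS groups, so the number of flags was not compared with chance. The groups share libraries and genes. Cd3e in PBS 5, at 0.515 CPM, lay far above the next PBS library, PBS 3 (0.124 CPM). Cd3g in PBS 5, at 0.238 CPM, lay far above PBS 1 (0.0659 CPM). Cd2 in PBS 3 was at 0.309 CPM, against 0.0369 CPM in PBS 6. Cd5 in PBS 6 was at 0.332 CPM, against 0.0784 CPM in PBS 2. The difference of log2 CPM between Cd8a and Cd3e was 0.394 in PBS 3, the next PBS library being at -0.54. The ratio of Cd8a to summed CD3 FPKM was 11.2 in NMDA 1, against 3.63 in NMDA 4, and 3.93 in PBS 3, against 0.514 in PBS 5. Of these, the NMDA 1 ratio rests on 125 Cd8a and 12 CD3 counts, and the PBS 3 values on 5 or fewer counts per gene in the library with the fewest total counts.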

How the results depend on the processing

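Cd8a and Ptprc rose under all alternatives that tested them (log2 fold changes 3.63 to 6.50 and 2.18 to 2.96). Cd8a and Cd3e did not pass a filter of at least 1 CPM in 6 libraries, so that 1 member was called there, against 8 without a filter and 3 in the reported test; with 1 library left out the count was 2 to 4. Cd3e kept its call under 7 alternatives of tool, scaling, filter or block and lost it in 5 of 12 fits with 1 library left out (adjusted p 0.000952 to 0.0560 over all alternatives). Lck ranged from adjusted p = 0.0360 to 0.209. The members called only without a filter stayed past the threshold in 15 alternatives each, 12 of them with 1 library left out, all added after the data were seen. Their log2 fold changes were 2.56 to 3.30 for Cd8b, 2.06 to 3.51 for Cd3g, 2.78 to 4.52 for Cd2 and 2.05 to 3.39 for Cd5. Cd3d was at 5.12 to 5.51, a size that is not measured since it had no PBS count. The distance between Cd8a and Cd3e was 2.09 to 3.37 (two-sided exact permutation p up to 0.0312, the smallest possible with sign flips within pairs of equal number). Over all genes, 5287 to 7103 were called, 2832 to 4233 higher; scaling by library size only called 4233 of 6556 higher. Equal replicate numbers are not said to mark a shared litter or day. The correlations of deviations within pairs of equal number were -0.19 to 0.153, and 0 of 6 NMDA libraries correlated best with its own number. With the replicate number as a block, 5593 genes and 3 members were called, Cd8a at 5.27, Cd3e at 2.12 (edgeR adjusted p = 0.0357), Ptprc at 2.64 and Lck at 0.62, and the distance between Cd8a and Cd3e was 2.53. Depth limits most members: 7 of 9 had at most 20 counts over all PBS libraries, and the sizes of their changes depend on single libraries.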
